A study of Mus musculus with 36 samples.

Results

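The genes of the proteasome, the particle that degrades ubiquitin-tagged proteins, were followed in kidney RNA of ob and b6j mice that were untreated or given CdCl2. Members were the protein-coding genes in the per-sample count files whose Ensembl 96 mouse symbol begins with Psma, Psmb, Psmc, Psmd or Psme followed by a digit. This gave 45 of 55536 genes, with 4 pseudogenes of the same name pattern not taken. The study holds 36 libraries in 6 groups of 6. The 3 b6j groups are normal C57BL/6 mice that were untreated or received CdCl2 at 0.5 or 2 mg/kg, and the 3 ob groups are ob/ob mice at the same doses. The ob allele is an allele of the leptin gene, and the labels give C57BL/6 as the strain of every sample. Route, duration, sex and age are not given in the sources used here. The series' title names chronic cadmium accumulation and renal damage. The labels number the replicates 1 to 6 but do not say that each is a separate animal, so the p-values measure only the spread between these samples.

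The proteasome has a barrel-shaped core of alpha and beta rings, whose beta subunits hold the catalytic sites, and a regulatory cap made of a base with ATPases and a lid. The cap binds and unfolds ubiquitinated proteins and threads them into the core. In cells exposed to interferon, 3 inducible catalytic subunits take the places of the constitutive ones in newly built particles, called immunoproteasomes, which favour peptides suited to MHC class I. Cadmium is taken up by the cells of the kidney's proximal tubule, where it binds metallothionein and damages proteins by reacting with thiols.

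By role, 31 members encode constitutive subunits. These comprise the 7 alpha ring genes, 4 non-catalytic beta genes (Psmb1 to Psmb4), 3 catalytic beta genes (Psmb5, Psmb6 and Psmb7), 6 base ATPases (Psmc1 to Psmc6), 3 further base subunits (Psmd1, Psmd2 and Psmd4) and 8 lid subunits. The immunoproteasome genes are 5, the inducible catalytic Psmb8, Psmb9 and Psmb10 and the activator genes Psme1 and Psme2. The other 9 are the assembly chaperones Psmd5, Psmd9 and Psmd10, the activators Psme3 and Psme4, the testis gene Psma8, the thymus gene Psmb11, the retrocopy Psme2b, and Psmc3ip, a recombination protein that is no subunit and is here through its symbol alone. A filter on low counts passed 43 members. Psme2b had 0 counts in every library and Psmb11 at most 6 counts in any library, so neither was tested. Levels are given as CPM, a gene's count scaled to its library's size. Since 3 counts equal 0.085 to 0.112 CPM, depending on the library, the 0 counts allow a level up to that.

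The promoters of 4 members are shown here because these genes carry the contrasts reported further on. Psmb5 and Psmb6 are catalytic genes that moved in opposite directions at 2 mg/kg in ob. Psmd11 had the largest called rise with all libraries, and Psmd4 stood highest over its group in a library that lies apart. Each sequence is the 250 bases before the gene's RefSeq start on GRCm38.p6, read 5′ to 3′ on the gene's own strand. Capitals mark a match, on either strand, to the antioxidant response element core TGACNNNGC (Psmb5 and Psmb6) or to the interferon-stimulated response element core GAAANNGAAA (Psmd4). In Psmd4 the match lies on the opposite strand and so reads as the reverse complement of the core. Psmd11 had no match to either. The windows are chr14:54617996-54618245 on the minus strand for Psmb5, chr11:70525107-70525356 on the plus strand for Psmb6, chr11:80428365-80428614 on the plus strand for Psmd11 and chr3:95042615-95042864 on the minus strand for Psmd4.
Psmb5: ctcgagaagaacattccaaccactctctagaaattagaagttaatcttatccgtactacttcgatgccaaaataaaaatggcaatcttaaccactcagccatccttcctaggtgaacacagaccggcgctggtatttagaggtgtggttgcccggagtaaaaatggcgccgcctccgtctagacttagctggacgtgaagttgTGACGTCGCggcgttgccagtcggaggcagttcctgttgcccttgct
Psmb6: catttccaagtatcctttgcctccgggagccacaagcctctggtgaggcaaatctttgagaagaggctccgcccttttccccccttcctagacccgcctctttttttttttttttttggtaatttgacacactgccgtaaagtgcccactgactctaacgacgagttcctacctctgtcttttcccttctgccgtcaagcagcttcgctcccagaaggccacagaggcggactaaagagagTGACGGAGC
Psmd11: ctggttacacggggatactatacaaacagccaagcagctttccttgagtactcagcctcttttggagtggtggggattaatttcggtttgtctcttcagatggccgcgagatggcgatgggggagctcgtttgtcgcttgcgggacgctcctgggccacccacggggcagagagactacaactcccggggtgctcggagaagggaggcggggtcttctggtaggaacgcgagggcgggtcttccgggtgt
Psmd4: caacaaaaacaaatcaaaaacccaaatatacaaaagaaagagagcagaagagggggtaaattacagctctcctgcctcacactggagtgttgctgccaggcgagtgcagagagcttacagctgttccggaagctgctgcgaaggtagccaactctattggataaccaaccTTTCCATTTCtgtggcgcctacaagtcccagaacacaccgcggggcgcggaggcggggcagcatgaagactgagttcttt

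The antioxidant core is the kind of site bound by the NRF1 and NRF2 families, of which NRF1 is known to drive proteasome genes when proteasomes are inhibited. Of the 38 members with a promoter in the RefSeq table, 5 (13.2%) held it: Psmb5, Psmb6, Psmc6, Psmd12 and Psmd9. Of all 27025 genes with a promoter in that table, 11.5% held it in any of their windows of this length. The interferon core was in 3 of the 38 (7.89%), Psmb3, Psmd4 and Psmd9, against 3.46% of all these genes. No window of the 5 immunoproteasome genes held either motif, which says only that these letters are not in those stretches of 250 bases. In Psmb5 the match begins at position -47 from the start and in Psmb6 at -9, while in Psmd4 it begins at -80.

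Libraries held 26783936 to 37244058 counted reads. Exposure could be read in metallothionein Mt1, which averaged 116 ± 17.3, 1369 ± 253 and 3073 ± 582 CPM (SD, n = 6) in b6j at 0, 0.5 and 2 mg/kg and 111 ± 21.2, 2823 ± 408 and 4424 ± 518 CPM in ob. Leptin mRNA (Lep), which fat cells make, was at 0 to 0.188 CPM in the untreated b6j libraries and at 0.0591 to 7.93 CPM in the untreated ob libraries. Its level does not check the genotype, since the labels do not say what the allele does to the transcript. The 9 kidney markers were detected in every group, but 1 library lay apart. Replicate 5 of the ob group at 2 mg/kg held 16.6 CPM of the proximal tubule phosphate transporter Slc34a1, and its 9 kidney markers summed to 1798 CPM against 11867 to 18404 CPM in the other 5 replicates. Results on the members that involve it are given with and without it.

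In untreated b6j kidneys, by CPM per kilobase of exon, the inducible catalytic genes lay below every constitutive gene. By that measure the activator genes Psme1 and Psme2 lay within the constitutive range. Per kilobase of exon, constitutive levels ran from 11.9 CPM for the lid gene Psmd11 to 111 CPM for Psmb5, the chymotrypsin-like subunit, with a median of 39.9. Their median coefficient of variation over the 6 replicates was 4.84%. The immunoproteasome genes ran from 1.49 CPM per kb for Psmb9 to 24.1 for Psme1 and 23.5 for Psme2, with Psmb8 at 1.95 and Psmb10 at 8.48. Psmb8 and Psmb9 were below every constitutive gene in all 6 groups, whereas Psmb10 (9.999 CPM per kb) was above Psmd11 (9.45) in untreated ob. Such ranks depend on annotated exon length, which is 1705 bases for Psmb10 and 6383 for Psmd11. In CPM alone, Psmb10 averaged 17.0 and Psmd11 60.3 in untreated ob. In untreated b6j, Psme1 (53.3 CPM) and Psme2 (41.4 CPM) were then below the lowest constitutive gene, Psma5 (58.3 CPM). Psma8, the testis gene, had 0 to 21 counts per library.

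**Figure D1:**
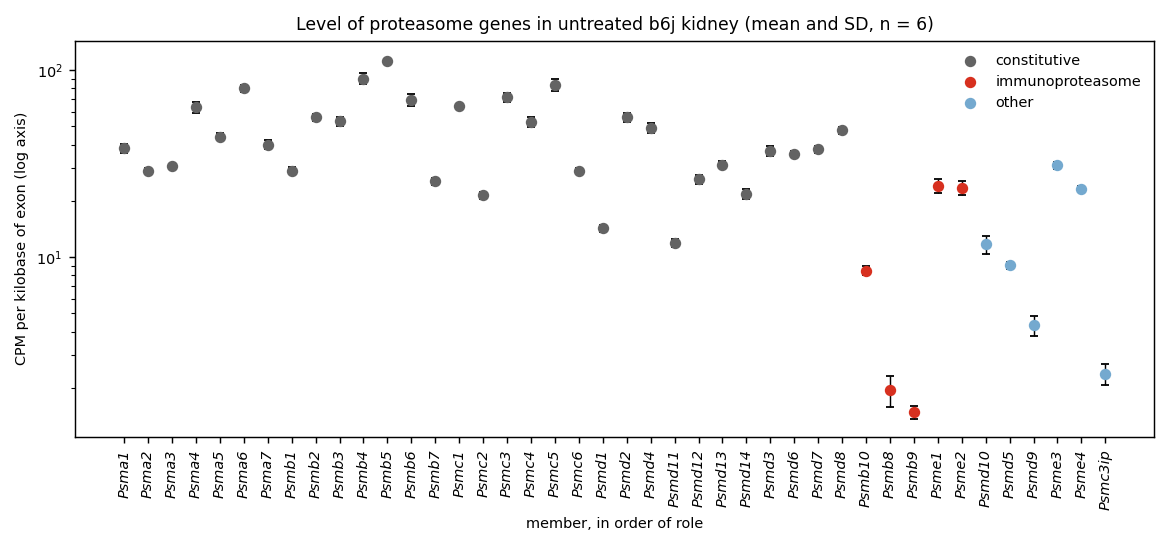
Mean level of each proteasome gene in untreated b6j kidney, in CPM per kilobase of exon on a log axis, with the SD over 6 replicates as bars. Constitutive subunits lie between 11.9 and 111, and Psmb8 and Psmb9 are below all of them at 1.95 and 1.49; members at or below 1 are not drawn.

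Untreated ob kidneys held less mRNA of 7 of the 31 constitutive proteasome genes than untreated b6j kidneys. By edgeR's quasi-likelihood test with Benjamini-Hochberg adjustment over all 18180 genes tested, 0 members were higher and 9 were lower in ob at an adjusted p under 0.05. Of all genes tested 15.5% were called (6.6% higher and 8.93% lower, also as shares of all genes), and 9 of 43 members stands beside that. The median log2 change of the 43 members was -0.14, with 35 of them negative, beside 0.03 for all genes tested. In whole tissue, fewer cells of a type and less RNA per cell cannot be told apart. Without replicate 5 of the ob group at 2 mg/kg, which is in neither group but adds to the shared estimate of spread, 20 members were lower and 0 higher at a background of 26% (11.8% higher, 14.2% lower). The sizes hardly moved with it (the median stayed at -0.14).

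The base and lid of the cap held most of these. Psmd2, the large base subunit that docks ubiquitin shuttles, had lowest, median and highest values of 202, 230.1 and 237 CPM in b6j and 168, 171 and 185 in ob. The 2 ranges did not overlap, and the log2 difference was -0.38 ± 0.09 (SE; adjusted p = 0.00319, edgeR). The ATPase Psmc4 had 103, 117 and 121 CPM in b6j and 80.2, 88.5 and 96.4 in ob, a log2 difference of -0.37 (adjusted p = 0.000753). The ATPase Psmc2 had 101, 109 and 113 CPM in b6j and 83.2, 85.0 and 93.7 in ob, a difference of -0.32 (adjusted p = 0.000115). The lid held Psmd14, the deubiquitinase that removes ubiquitin chains before degradation, at -0.33, with Psmd7, its partner, at -0.26 and Psmd12 at -0.23. Psmd12 was the least firm of the 9, since its call was lost when any 1 of 7 libraries was left out (b6j control replicate 1, 3, 5 or 6, or ob control replicate 2, 5 or 6), with adjusted p up to 0.0651.

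Of the catalytic genes, Psmb5 was lower in ob, at 73.3, 79.0 and 89.5 CPM against 95.4, 101 and 105 in b6j (log2 difference -0.32, adjusted p = 0.0146). Psmb6, which cuts after acidic residues, differed by -0.06 and Psmb7, the trypsin-like subunit, by -0.18, and neither passed. Both activators that are alternatives to the cap were lower, the nuclear Psme3 by -0.29 and Psme4 by -0.34. None of the 5 immunoproteasome genes was called, with log2 differences of -0.16 for Psmb8, 0.26 for Psmb9, 0.24 for Psmb10, 0.16 for Psme1 and 0.07 for Psme2. Scaling matters here: with library size alone, the median of all genes shifted to 0.16 and that of the members to -0.00476, and the calls became 4 higher and 4 lower. The 4 lower ones were Psmc2, Psmc4, Psmd2 and Psme4, and the 4 higher ones included Psmb10, Psme1 and Psme2.

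Other genes of the pathway stood as follows in this comparison, beside 15.5% of all genes called. Of 19 ubiquitin genes tested, 0 were higher and 8 lower in ob (42.1%), among them the segregase Vcp at -0.39. Of 20 assembly and regulatory genes tested, 0 were higher and 3 lower (15%), namely the cap's ubiquitin receptor Adrm1 at -0.55, the protease Ddi2 at -0.24 and Fbxo7 at -0.30. Of 12 heat shock genes, 5 were lower and 0 higher, with Hsp90aa1 at -0.70.

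At 0.5 mg/kg the members changed little. In b6j, 0 of 43 were called by edgeR, against 0.325% of all genes (0.297% higher, 0.0275% lower), with 3 members at an unadjusted p under 0.05 and 0 called by DESeq2 or limma-voom. The median log2 change was -0.04. Without replicate 5 of the ob group at 2 mg/kg 0 were called too, at a background of 0.854% (0.691% higher, 0.163% lower). Psmb9 and Psmc3ip had ranges that did not overlap those of the controls, but neither was called. How many of all genes lacked overlap was not counted. Psmb9 stood at 6.04, 6.72 and 9.66 CPM against 4.95, 5.45 and 5.99 in controls, and did not pass (log2 change 0.38, adjusted p = 0.599). Psmc3ip, which is no subunit, was at 2.58 to 3.52 CPM against 3.66 to 5.14 and did not pass either (-0.45, adjusted p = 0.422). In ob, 1 member rose and 0 fell, against 4.28% of all genes (3.55% higher, 0.737% lower), and the median was 0.07 (-0.04 with library size alone). The riser was Psme4, a proteasome activator that needs no ATP. It had 135, 153 and 170.4 CPM in untreated ob and 175, 181 and 216 at 0.5 mg/kg, so that the 2 groups did not overlap (log2 change 0.28 ± 0.07, adjusted p = 0.013). The call was lost without ob control replicate 6 (adjusted p = 0.0535) or without ob 0.5 mg/kg replicate 6 (adjusted p = 0.0587), and with library size alone 0 were called. Without replicate 5 of the ob group at 2 mg/kg, 3 members rose and 0 fell at a background of 9.68% (6.65% higher, 3.04% lower), the others being Psmb5 (0.25) and Psmd11 (0.21).

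At 2 mg/kg in b6j, some constitutive genes fell and the inducible catalytic gene Psmb10 rose. How many falls were called depended on 1 library of another group. Of the 43 members 1 rose and 7 fell, against 23.7% of all genes called (12.3% higher, 11.4% lower). The median change was -0.13, and that of the 31 constitutive genes -0.16 with 27 of them negative. With all libraries, the 5 constitutive genes called, all lower, are 16.1% of the 31, a share under that of all genes. Without replicate 5 of the ob group at 2 mg/kg, 3 rose and 23 fell at a background of 34.8% (17% higher, 17.7% lower). Of these, 21 falls and 1 rise were constitutive, and the 21 falls alone are a share of the 31 above that of all genes. Those falls reached each part of the particle, with 5 of the 7 alpha genes, 4 of the 4 non-catalytic beta genes, 5 of the 6 ATPases and 4 of the 8 lid genes. With library size alone the split was 5 higher and 3 lower, at a shift of all genes of 0.12 and a member median of -0.03. Leaving out replicate 2 of b6j at 2 mg/kg left 0 rises and 5 falls.

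The largest fall was in Psmc3, an ATPase of the base. It had 166, 191 and 195 CPM in untreated b6j and 131, 137 and 144 at 2 mg/kg, with no overlap (log2 change -0.44 ± 0.07, adjusted p = 1.74e-05). Psmb6 had 116, 129 and 142 CPM in controls and 91.6, 102 and 109.9 at 2 mg/kg, again with no overlap (-0.35 ± 0.07, adjusted p = 0.000395). Psmc2 and Psmc4 fell by 0.30 and 0.27 on the log2 scale, and in both the groups did not overlap. Psmb3, a beta ring gene, fell by 0.23, a call that was lost without b6j 2 mg/kg replicate 2 or 5 or b6j control replicate 1, 2 or 6. The assembly chaperone Psmd10, also known as gankyrin, fell by 0.29, and lost its call without b6j control replicate 5 (adjusted p = 0.0594). Psmc3ip, the gene that is no subunit, fell by 0.44, and its call was lost when any 1 of 6 libraries was left out (b6j 2 mg/kg replicate 2, 5 or 6, or b6j control replicate 1, 3 or 6; adjusted p up to 0.0958). Psmb5 (-0.04) and Psmb7 (-0.18) were not called.

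Psmc3, Psmb6 and Psmc2 were also lower at 2 than at 0.5 mg/kg in b6j, by 0.34, 0.31 and 0.23 on the log2 scale. These were the 3 calls of 43 in that comparison (0 higher), against 17.3% of all genes (8.78% higher, 8.51% lower), and 10 lower and 3 higher without replicate 5 of the ob group at 2 mg/kg, at a background of 28.7% (13.5% higher, 15.1% lower). With library size alone the split was 5 higher and 2 lower and the member median 0.04 in place of -0.07.

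Of the subunits that rose in b6j at 2 mg/kg, Psmb10 was the one called. It had 13.4, 14.4 and 15.3 CPM in controls and 15.1, 17.8 and 21.3 at 2 mg/kg, with 5 of the 6 treated libraries above every control (log2 change 0.32 ± 0.10, adjusted p = 0.0146). Without b6j 2 mg/kg replicate 2 the change was 0.26 and not called (adjusted p = 0.0596). Psmb8 changed by 0.20 and Psmb9 by 0.34, with adjusted p of 0.346 and 0.105. The activator genes Psme1 and Psme2 stood at -0.03 and -0.07. Psmd11, a lid subunit whose level is known to limit assembly of the complete particle, had 81.4, 96.7 and 113 CPM against 70.2, 77.0 and 80.4 in controls, with no overlap. Its log2 change of 0.36 missed the threshold with all libraries (adjusted p = 0.0614) and passed without replicate 5 of the ob group at 2 mg/kg (0.35, adjusted p = 0.000128).

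**Figure D2:**
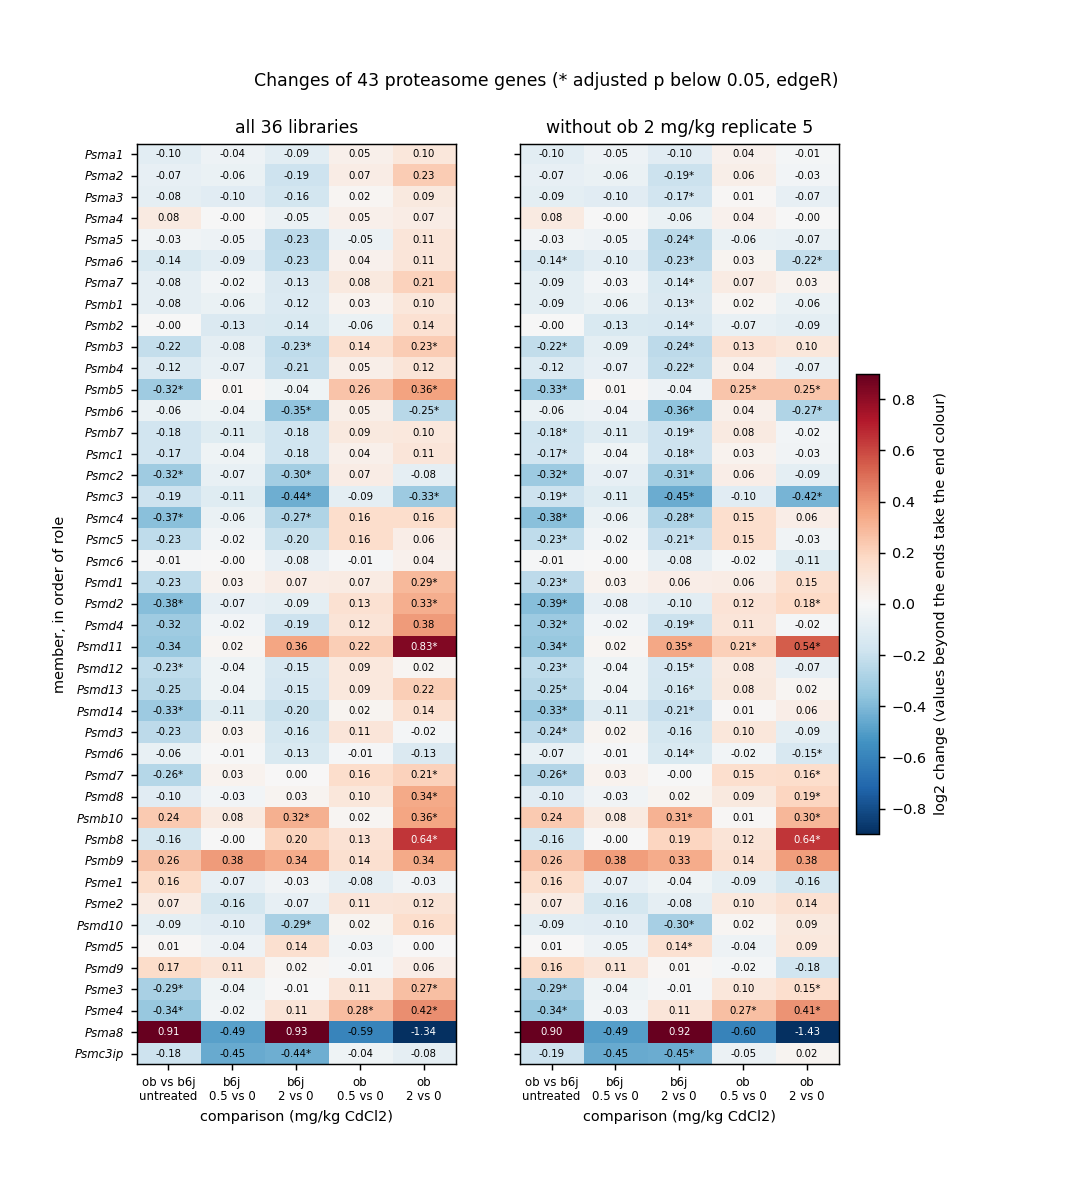
Log2 changes of the 43 tested members in 5 comparisons, in order of role, from all 36 libraries (left) and without replicate 5 of the ob group at 2 mg/kg (right); an asterisk marks an adjusted p under 0.05. In the b6j column at 2 mg/kg 7 members fell with all libraries and 23 fell without that replicate, while the ob column at 2 mg/kg turns from mostly positive to mixed.

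In ob at 2 mg/kg the members split, with several cap genes, Psmb5 and inducible catalytic genes up and Psmb6 and Psmc3 down. With all libraries 11 rose and 2 fell, against 38.4% of all genes called (20.4% higher, 18% lower), and the median was 0.12. Without replicate 5, 9 rose and 4 fell at a background of 38% (19.1% higher, 18.9% lower), and the median was -0.01. The general upward lean therefore rested on that library, and the following changes are given both ways.

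With all libraries Psmd11 rose most, while without replicate 5 the rise of Psmb8, given further on, was larger. Psmd11 had 55.5, 60.7 and 66.8 CPM in untreated ob and 78.1, 87.2 and 206 at 2 mg/kg, where 206 is replicate 5. No library of the groups overlapped, and the log2 change was 0.83 ± 0.14 (adjusted p = 1.66e-05), or 0.54 (adjusted p = 1.88e-07) without replicate 5. The other lid genes called were Psmd8 at 0.34 (0.19 without replicate 5) and Psmd7 at 0.21 (0.16 without). Of the base, Psmd2 rose by 0.33 (0.18 without) and Psmd1 by 0.29, which was not called without replicate 5 (0.15, adjusted p = 0.0584). The beta ring gene Psmb3 rose by 0.23 and was likewise not called without it (0.10, adjusted p = 0.11). Both cap alternatives rose, Psme4 by 0.42 (0.41 without) and Psme3 by 0.27 (0.15 without). Psme4, Psmd2, Psmd7, Psme3 and Psmb5 were also among the 9 members lower in untreated ob than in untreated b6j; both comparisons use the untreated ob libraries.

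Psmb5 and Psmb6 went in opposite directions. Psmb5 had 73.3, 79.0 and 89.5 CPM in untreated ob and 83.2, 96.8 and 143 at 2 mg/kg, and 4 of the 6 treated libraries were above every control. Its log2 change was 0.36 (adjusted p = 0.00236), or 0.25 (adjusted p = 0.00804) without replicate 5. Psmb6 had 114, 123 and 138 CPM in untreated ob and 93.0, 105 and 114 at 2 mg/kg, and the groups did not overlap. Its log2 change was -0.25 ± 0.07 (adjusted p = 0.006), and -0.27 without replicate 5. Both promoters printed above hold the antioxidant core. The third catalytic gene, Psmb7, was not called in either analysis (0.10, and -0.02 without replicate 5). Psmc3 had 151, 167 and 175 CPM in controls and 117, 123 and 172 at 2 mg/kg, a log2 change of -0.33 (adjusted p = 0.000486) or -0.42 (adjusted p = 1.33e-07) without replicate 5. In the alpha ring, Psma6 changed sign with that library, from 0.11 with it to -0.22 without it (adjusted p = 0.00177 without). Psmd6 was the remaining fall seen without it (-0.15).

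Against ob at 0.5 mg/kg rather than untreated ob, 4 members were higher and 2 lower at 2 mg/kg, beside 29.7% of all genes called (15.2% higher, 14.5% lower). These were Psmd11 (0.61, and 0.33 without replicate 5), Psmb8 (0.51), Psmb10 (0.34) and Psmd8 (0.24) above, and Psmb6 (-0.30) and Psmc3 (-0.24) below. Psmd8 lost its call without replicate 5 (0.10, adjusted p = 0.118) or without ob 0.5 mg/kg replicate 1, 2 or 4. Without replicate 5 the split was 3 higher and 5 lower at a background of 27.6% (13.4% higher, 14.3% lower), without replicate 4 it was 8 higher and 2 lower, and with library size alone 13 higher and 1 lower.

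**Figure D3:**
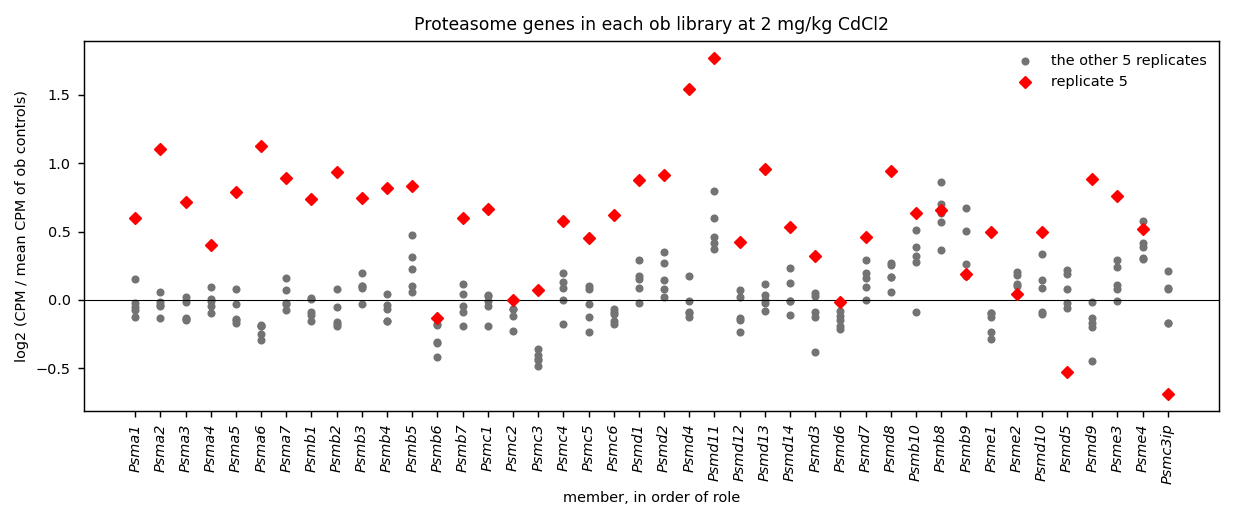
Level of each member in each of the 6 ob libraries at 2 mg/kg, as log2 of its CPM over the mean CPM of the untreated ob libraries, in order of role; diamonds are replicate 5 and circles the other 5. The diamonds of the alpha ring genes lie above all circles, while those of Psmb8, Psmb9 and Psme2 lie among or below them.

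Replicate 5 of the ob group at 2 mg/kg was high for the constitutive proteasome. Of the 31 constitutive genes 30 were above all 5 other replicates and 24 were above all 35 other libraries of the study. Over all genes tested, 36.3% were above the other 5 replicates and 27.2% above the other 35 libraries in this library. The median log2 ratio of the 31 constitutive genes to the other replicates was 0.68, from 0.07 to 1.63, beside -0.05 for all genes tested. All 7 alpha ring genes were above the other replicates, with a median of 0.91. Psmd4, the ubiquitin receptor whose promoter holds the interferon core, had 322 CPM against 101 to 124 in the other 5. Psma6 had 195 CPM against 72.9 to 78.5. The immunoproteasome genes did not share this, with 2 of 5 (Psmb10 and Psme1) above the other replicates and a median of 0.02. Psmb8 had 9.28 CPM there against 7.58 to 10.7, and Psmb9 7.45 against 7.36 to 10.4. In the same library Ubb, a polyubiquitin gene, stood 2.45 and Zfand2a, an arsenite-induced proteasome partner, 2.36 above the other replicates on the log2 scale. None of the 9 kidney markers was above them (median -2.86), and the leukocyte markers summed to 161 CPM against 729.5 to 1163. Of the 17 leukocyte markers with a ratio to the other replicates, 3 were above all of them, and the median log2 ratio was -2.29. These were Cd68, at 45.0 CPM against 5.89 to 9.84, and S100a8 and S100a9, at 2.71 and 3.68 CPM against at most 0.736 and 0.719. The macrophage markers Adgre1 (0.935 against 9.06 to 17.3 CPM) and Csf1r (8.38 against 41.9 to 52.2 CPM) were lower there. The neutrophil marker Ly6g was at 0.0312 CPM against at most 0.0284. Of the ubiquitin genes 13 of 19, and of the assembly and regulatory genes 12 of 20, were above the other replicates too. Whether the loss of kidney transcripts or the makeup of that sample bears on its proteasome levels was not tested. A milder case was replicate 6 of b6j at 0.5 mg/kg, the highest of its group for 29 of 31 constitutive genes with a median log2 ratio of 0.26.

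In ob at 2 mg/kg, 2 of the 5 immunoproteasome genes rose and 0 fell, a share near the 38.4% of all genes called. Psmb8, which replaces Psmb5, had 5.62, 5.93 and 6.19 CPM in untreated ob and 7.58, 9.22 and 10.7 at 2 mg/kg. Every treated library was above every control, and the level was 1.56-fold higher (log2 change 0.64 ± 0.14, adjusted p = 0.000514; 0.64 without replicate 5). Psmb10, which replaces Psmb7, had 15.3, 16.8 and 19.0 CPM in controls and 16.05, 21.8 and 26.5 at 2 mg/kg, with 5 of 6 treated libraries above every control. Its change was 0.36 ± 0.10 (adjusted p = 0.00377), or 0.30 (adjusted p = 0.0105) without replicate 5. Psmb9, which replaces Psmb6, had 5.50, 6.44 and 8.17 CPM against 7.36, 7.63 and 10.4 at 2 mg/kg. At 0.34 it missed the threshold (adjusted p = 0.0686) and it passed with DESeq2 (adjusted p = 0.039). Without replicate 5 it was 0.38 (adjusted p = 0.0501). The activators Psme1 (-0.03, and -0.16 without replicate 5) and Psme2 (0.12, and 0.14 without) were not called.

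**Figure D4:**
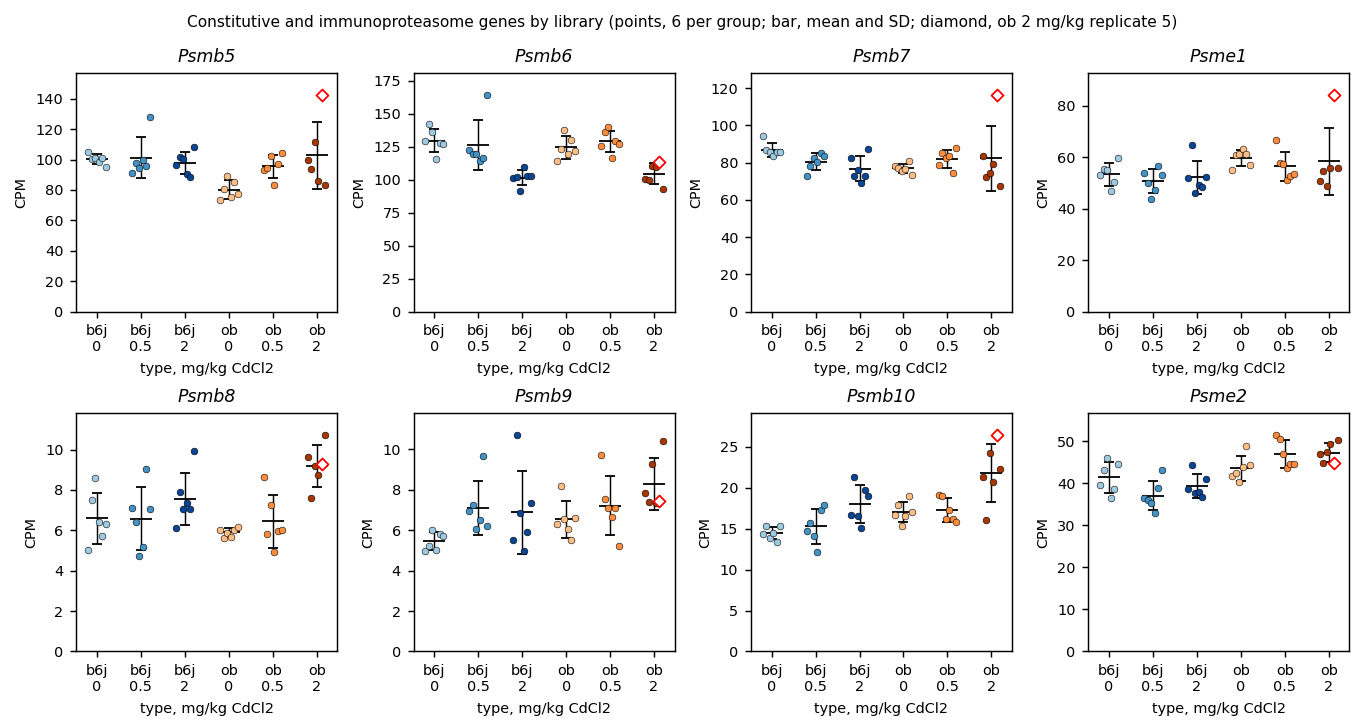
CPM in each library, by type and dose, for the constitutive catalytic genes and Psme1 (top) and the inducible catalytic genes and Psme2 (bottom), with mean and SD; the diamond is replicate 5 of ob at 2 mg/kg. Psmb8 lies at 5.62 to 6.19 in untreated ob and at 7.58 to 10.7 at 2 mg/kg, and Psmb6 is lower at 2 mg/kg in both types.

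The share of the inducible gene in each catalytic pair, per kilobase, is a ratio within a library and so does not depend on the scaling. The size of the share does depend on the length used, which is all annotated exon bases of a gene. These are 3381 for Psmb8 and 899 for Psmb5, 3660 for Psmb9 and 1872 for Psmb6, and 1705 for Psmb10 and 3421 for Psmb7. The lengths cancel in a difference of log2 ratios between groups. For 3 pairs in 5 comparisons, 15 exact two-sided permutation tests of the log2 ratio were run, 6 libraries against 6, with Benjamini-Hochberg adjustment over the 15. In untreated b6j Psmb8 was 1.72% ± 0.335 (SD, n = 6) of its pair, Psmb9 2.11% ± 0.183 and Psmb10 25.0% ± 1.26. At 2 mg/kg the Psmb9 share was 3.36% ± 1.00 in b6j and 3.93% ± 0.796 in ob, against 2.62% ± 0.395 in untreated ob. The log2 ratio of Psmb9 to Psmb6 was higher by 0.65 in b6j (adjusted exact p = 0.0108) and by 0.59 in ob (adjusted exact p = 0.0162), or by 0.65 in ob without replicate 5 (adjusted exact p = 0.013). In both, Psmb6 fell while Psmb9 itself was not called.

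The Psmb10 share in b6j went from 25.0% to 32.0% ± 3.20 at 2 mg/kg, a ratio higher by 0.50 (adjusted exact p = 0.0108). In ob it went from 30.7% ± 1.252 to 34.9% ± 3.91, a ratio higher by 0.27 that missed the threshold (adjusted exact p = 0.0541) and passed without ob 2 mg/kg replicate 5 (0.32, adjusted exact p = 0.0278) or replicate 2 (0.32, adjusted exact p = 0.026). Untreated ob was already above untreated b6j by 0.41 (adjusted exact p = 0.0108). For Psmb9 to Psmb6 the untreated types differed by 0.31 (adjusted exact p = 0.039), a call lost when any 1 of 11 of the 12 libraries was left out and with the difference of medians (0.25, adjusted p = 0.101). The exception was ob control replicate 5.

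The Psmb8 to Psmb5 ratio did not pass in any of the 5 comparisons with all libraries. In ob at 2 mg/kg it was higher by 0.29 (adjusted exact p = 0.119), where both genes rose, and it passed without replicate 5 (0.39, adjusted exact p = 0.013). At 0.5 mg/kg none of the 6 ratios passed. Psmb9 to Psmb6 in b6j was the nearest at 0.42 (adjusted exact p = 0.0557) and passed without b6j 0.5 mg/kg replicate 6 (0.53, adjusted exact p = 0.00812). Psmb10 to Psmb7 in b6j was called without replicate 4 of that group (0.25, adjusted exact p = 0.0325), and Psmb8 to Psmb5 in ob was lower without ob 0.5 mg/kg replicate 1 (-0.25, adjusted exact p = 0.0379).

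**Figure D5:**
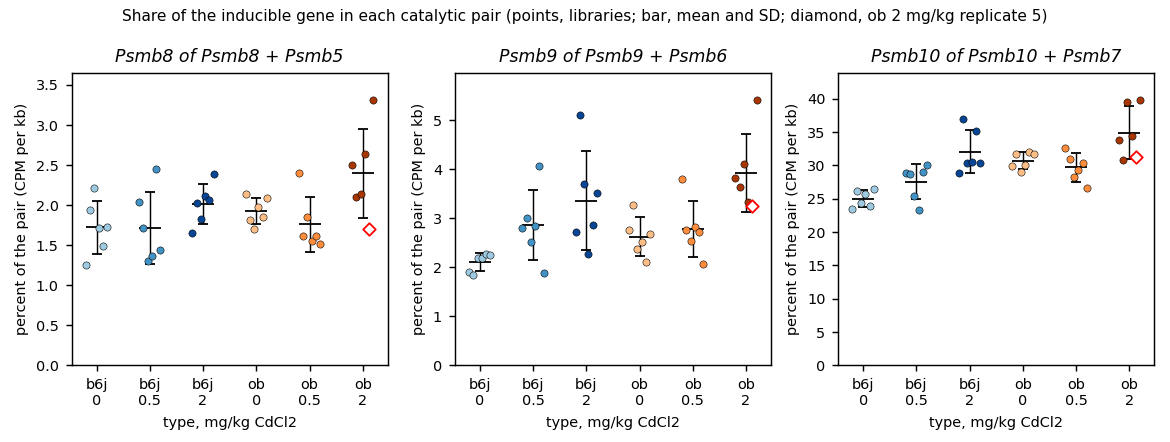
Percent of the inducible gene in each catalytic pair, per kilobase of exon, in each library by type and dose, with mean and SD. The Psmb9 share averages 2.11% in untreated and 3.36% in 2 mg/kg b6j kidneys, and the Psmb10 share 25.0% and 32.0%.

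Most interferon-stimulated and MHC class I genes listed rose in both types at 2 mg/kg, where 23.7% of all genes were called in b6j and 38.4% in ob. Of 20 interferon-stimulated genes, 13 rose and 0 fell in b6j (median 0.70) and 13 rose and 0 fell in ob (median 0.81), with the same ob count without replicate 5 (median 0.89). Of 12 genes of MHC class I antigen processing, 7 rose and 1 fell in b6j and 7 rose and 0 fell in ob (8 and 0 without replicate 5). They include the light chain B2m, at 0.65 in b6j and 0.98 in ob (0.82 without replicate 5), and the peptide transporter Tap1, at 0.65 and 1.13 (0.87 without). Tap1 and Psmb9 are neighbours that share 212 exon bases on opposite strands, where reads of the 2 cannot be told apart. Leukocyte markers mark cells that hold immunoproteasomes. Of 20 tested, 4 rose and 0 fell in b6j, a share of 20% that is under the background of 23.7%, and 9 rose and 3 fell in ob (11 and 3 without replicate 5). Their summed level was 416 to 550.3 CPM in untreated b6j, 569.9 to 794 in b6j at 2 mg/kg, 402.5 to 481 in untreated ob, and 161 to 1163 in ob at 2 mg/kg (729.5 to 1163 without replicate 5). Ly6g, a neutrophil marker, was at 0 in all untreated ob libraries. The part of leukocytes in the rise of Psmb8 and Psmb10 was not tested.

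The genes around the particle were called about as often as genes at large at the higher dose. Of the 20 assembly and regulatory genes, 0 rose and 6 fell in b6j (30% against 23.7%), among them the core assembly factors Psmg1 (-0.54) and Pomp (-0.36) and the nuclear import factor Akirin2 (-0.40). In ob 5 rose and 4 fell (45% against 38.4%), and 1 rose and 7 fell without replicate 5 (40% against 38%), with Psmg1 again lower (-0.59, and -0.61 without). Of the 19 ubiquitin genes 2 rose and 1 fell in b6j (15.8% against 23.7%), and 9 rose and 0 fell in ob (47.4% against 38.4%, with 8 and 0 without replicate 5). The ubiquitin-binding autophagy receptor Sqstm1 rose in both, by 0.86 in b6j and 0.94 in ob (1.08 without replicate 5), and the shuttle Ubqln2 by 0.41 and 0.36 (0.31 without). Of 15 NRF2 target genes 14 rose and 0 fell in each type, also without replicate 5. The 9 kidney markers summed to 38068 to 48551 CPM in untreated b6j and 21163 to 31283 at 2 mg/kg, with 1 of the 9 called (lower). The marker Kap weighs most in the untreated b6j sums. It reached 33501 CPM in a library of the study, while no other of the 9 exceeded 8381 CPM (Slc34a1). The part of the kidney markers' fall in the changes of the constitutive genes was not tested.

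The response to 2 mg/kg differed between the types for few members. In edgeR's test of the genotype difference itself, 2 members had a higher response in ob and 0 a lower one, against 2.07% of all genes called (1.06% higher, 1.01% lower). Psmb3 had 111, 123 and 131 CPM in untreated b6j and 99.2, 103 and 115 at 2 mg/kg, against 101, 106 and 115 in untreated ob and 104, 114 and 177 at 2 mg/kg. Its response was higher in ob than in b6j by 0.46 ± 0.11 (adjusted p = 0.0264, or 0.34 with adjusted p = 0.00318 without replicate 5). The rise of Psmb3 in ob was not called without replicate 5 (0.10, adjusted p = 0.11). Its fall in b6j lost its call in the leave-outs named above. For the ATPase Psmc4 the difference was 0.43 ± 0.11 (adjusted p = 0.0343; 0.34 and 0.0146 without replicate 5), lost without ob 2 mg/kg replicate 3 or b6j control replicate 1, 2, 3 or 6 (adjusted p up to 0.0631). With library size alone neither was called. All 31 constitutive genes had a positive difference (29 without replicate 5), with a median of 0.28 (0.16 without), and Psmb3, Psmc4, Psmd2 and Psmd10 were called without that replicate at a background of 4.12% (2.2% higher, 1.93% lower). Leaving out replicate 4 or 6 of ob at 2 mg/kg gave 7 calls, and leaving out b6j control replicate 1, 2, 3 or 6 gave 1.

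For the immunoproteasome genes a genotype difference was not detected. It was 0.44 ± 0.20 for Psmb8 (adjusted p = 0.249), 0.01 for Psmb9, 0.04 for Psmb10, 0.00 for Psme1 and 0.19 for Psme2. Without replicate 5 the values were 0.45, 0.05, -0.01, -0.12 and 0.22 in the same order. That Psmb8 passed in ob and not in b6j is therefore not shown to be a difference between the types. At 0.5 mg/kg the genotype difference was called for 0 members by edgeR, against 0.385% of all genes (0.369% higher, 0.0165% lower), and for 6 by limma-voom, each of them higher in ob; the median was 0.12 (0.03 with library size alone). Without replicate 5 of ob at 2 mg/kg it was called for 0 members, at a background of 1.38% (1.1% higher, 0.283% lower).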

How the data were processed

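RNA of snap-frozen kidney was sequenced, one library per sample. The authors' deposited files hold raw counts of reads per gene, made with featureCounts 1.4.6-p2 over exons of the Ensembl 96 annotation per the file headers, with no strand option and multi-mapping reads left out by that version's default. bcl2fastq, Trimmomatic, FastQC, STAR and GRCm38 are named per the submitters' processing notes. Reads shared with near-identical copies are thus lost, which bears on Ubb and on genes with pseudogenes. Of the members, 14 share exon bases with another gene, and 2 (Psmc3ip and Psmd9) over 20% of them. The joined table's 36 columns were not used.

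Counts were fitted in edgeR 4.0.16 (R 4.3.3) with TMM scaling, filterByExpr, 1 mean per group over all 36 libraries and Benjamini-Hochberg adjustment over 18180 genes; a call is an adjusted p under 0.05. CPM uses TMM-scaled library sizes. Library depth (26783936 to 37244058 counted reads) sets the precision of low genes. Ratios were tested by exact permutation (924 arrangements, smallest p 0.0022). Members and lists were chosen with earlier results of these data known. Every member is covered by role; called members are named, with the catalytic and immunoproteasome genes always named. Alternatives were DESeq2 1.42.0, limma-voom 3.58.1 with sample weights, library size alone, DESeq2-style size factors, other filters, the compared groups alone, a replicate block and leaving out each library. The scripts were tested on simulated data.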

Additional observations from a re-analysis of the deposited data

Results flagged for a closer look

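In 156 groups of 6 libraries (23 named members and the 3 catalytic pair ratios, in 6 groups each), 21 had a highest or lowest library whose gap to the nearest other was above Dixon's critical value for the share of the group's range; chance gives this in about 1 of 20 groups. Replicate 5 of ob at 2 mg/kg accounts for 9 of them, with Psme1 at 84.2, Psmb7 at 116, Psmd2 at 325, Psme3 at 127, Psmb3 at 177, Psmc3 at 172, Psmd1 at 163, Psmd11 at 206 and Psmd8 at 263 CPM, each the highest of its group. Replicate 6 of b6j at 0.5 mg/kg was apart for Psmb5 (128 CPM), Psmb6 (164 CPM), Psmc2 (121 CPM), Psmc4 (127 CPM), Psmd2 (249.6 CPM) and Psmd7 (109 CPM). Replicate 5 of that group was apart for Psmb9 at 9.66 CPM. Replicate 3 of untreated ob was apart for Psmc2 at 93.7 and Psmd2 at 185 CPM, and replicate 3 of ob at 0.5 mg/kg for Psmc3 at 171 CPM. Psme1 was apart at 64.5 CPM in replicate 2 of b6j at 2 mg/kg, and Psmb7 at 94.2 CPM in replicate 1 of untreated b6j.

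The response to 2 mg/kg differed between ob and b6j, by edgeR's test of the difference, in Psmb3 (log2 difference 0.46) and Psmc4 (0.43), with the values and the libraries they depend on given above.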

How the results depend on the processing

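No called member or ratio reversed under any alternative run, but the number of calls moved. For members called, limma-voom with sample weights gave 22 for ob against b6j controls, 27 for b6j at 2 mg/kg, 12 for b6j at 2 against 0.5 mg/kg, 6 for ob at 0.5 mg/kg, and 6 and 6 for the genotype differences at 0.5 and 2 mg/kg. The compared groups alone gave 22, 23, 6 and 4 for the first 4 of these comparisons, 7 for ob at 2 mg/kg, 2 for ob at 2 against 0.5 mg/kg and 0 for the genotype difference at 2 mg/kg. Library size alone gave 7 for b6j at 2 against 0.5 mg/kg, 0 for ob at 0.5 mg/kg, 14 for ob at 2 against 0.5 mg/kg and 0 for the genotype difference at 2 mg/kg, where DESeq2 gave 7 and no filter 1. Member medians with library size alone were -0.00476 (ob against b6j controls), -0.0324 (b6j at 2 mg/kg), 0.0402 (b6j at 2 against 0.5 mg/kg), -0.0359 (ob at 0.5 mg/kg) and 0.0293 (genotype difference at 0.5 mg/kg). The Psmb9 to Psmb6 ratio between controls was 0.25 by medians. The cause of these shifts was not tested.

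Leaving out 1 library at a time, members called ranged over 8 to 20 (ob against b6j controls), 5 to 26 (b6j at 2 mg/kg), 3 to 13 (b6j at 2 against 0.5 mg/kg), 0 to 3 (ob at 0.5 mg/kg), 13 to 18 (ob at 2 mg/kg), 5 to 10 (ob at 2 against 0.5 mg/kg) and 1 to 7 (genotype difference at 2 mg/kg). Of the log2 ratios, Psmb9 to Psmb6 between controls ranged over 0.25 to 0.38, in b6j at 0.5 mg/kg over 0.30 to 0.53; Psmb10 to Psmb7 in b6j at 0.5 mg/kg over 0.15 to 0.25 and in ob at 2 mg/kg over 0.21 to 0.32; and Psmb8 to Psmb5 in ob over -0.25 to -0.11 at 0.5 mg/kg and 0.19 to 0.39 at 2 mg/kg. With the replicate number as a block, the counts of members called were 9, 0, 8, 3, 1, 13, 6, 0 and 2 in the 9 comparisons, as without it. The numbers do not pair the samples: 5 of 90 same-numbered pairs correlated above 0.1, and 6 libraries correlated best with their own number. Depth limits Psma8 (at most 21 counts in a library), Psmb11 (at most 6) and Psme2b (0 in every library).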
